A study of Rattus norvegicus with 145 samples.

Results

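The 67 genes described here are the glutathione transferases, the glutathione peroxidases and the other antioxidant genes of rat liver, several of them known targets of the transcription factor NRF2. They were taken by gene symbol from the 17337 genes counted, by a rule set with earlier results of these data known. The rule took the cytosolic and mitochondrial transferases (symbols Gsta, Gstk, Gstm, Gsto, Gstt and Gstz followed by a number, 21 genes), the microsomal transferases (Mgst, 3 genes), the glutathione peroxidases (Gpx, 8 genes), the peroxiredoxins, symbols that begin with Txn (16 genes, thioredoxins, thioredoxin reductases and thioredoxin-domain proteins), the superoxide dismutases Sod1, Sod2 and Sod3, and Cat, Gclc, Gclm, Gsr, Gss, Nqo1, Hmox1, Srxn1, Nfe2l2 and Keap1. The pi-class transferase Gstp1 is outside the rule.

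Liver RNA of 145 Wistar rats given acetamide in water by daily gavage, or water alone, was sequenced, in 29 groups of 5 rats. In experiment A, males of strain Hsd:WI, 9 to 10 weeks old, received vehicle or daily doses of 30, 100, 300 and 1000 mg/kg (mkd) for 7 days and were sampled on day 8. In experiment B, males and females of strain Crl:WI, 8 to 10 weeks old, received vehicle or 300, 500, 750, 1000 or 1500 mkd for 7 days (sampled on day 8) or for 28 days (sampled on day 29). The day 29 control males carry the exposure series label of experiment A, while their title and strain are those of experiment B, where they were placed. Replicates are the rats of a group numbered in the order of their labels. In experiment A at 100, 300 and 1000 mkd the labels skip a number, so some replicate numbers differ from those in the labels. No rat carried a genetic change, and all were fasted overnight before the left liver lobe was taken. The experiments differ in strain and age as well as in time of study.

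Glutathione transferases join glutathione to reactive compounds so that these can be excreted, and they are among the most abundant proteins of the hepatocyte. Glutathione peroxidases, peroxiredoxins and catalase remove hydrogen peroxide and lipid peroxides, and superoxide dismutases make hydrogen peroxide from superoxide. NRF2, encoded by Nfe2l2, is held in the cytoplasm and passed to degradation by KEAP1 until electrophiles or oxidants modify KEAP1. NRF2 then enters the nucleus and, with small MAF proteins, binds antioxidant response elements in front of genes such as Nqo1, Gclc, Gclm, Srxn1, Txnrd1 and many transferases. NRF2 itself is controlled mainly as a protein, so its RNA level need not follow its activity.

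Between 15449716 and 39986531 reads per rat fell on genes, with a median of 28262376. Levels are given as CPM, counts scaled to a common library size, on a single TMM scale over all rats, so they compare a gene between rats and not between genes. Each dose was set against the vehicle controls of its own data set by edgeR (quasi-likelihood F-test), and a gene was called where the fold change was at least 1.5 in either direction and the Benjamini-Hochberg adjusted p over all genes tested was at most 0.05. All adjusted p below are of this kind, and a call is one by edgeR unless DESeq2 is named. Of the 67 members, 57 passed the filter on low counts in every data set and 3 (Gpx2, Gstm6 and Gsto2) in some. The other 7 were tested in no data set: Gpx6 and Txndc8 had 0 counts in every rat, and Gpx5, Gstt4, Gstm6l, Txndc2 and Gsta5 had at most 1, 1, 2, 2 and 3 counts in any rat. Genes of the alpha and mu classes have near-identical copies. Reads that such copies share cannot be assigned with certainty by the counting used, so the values of Gsta and Gstm genes are uncertain.

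Promoter sequences were looked at for the core of the antioxidant response element, TGACNNNGC, on both strands. Each window ran from 250 bases before to 50 bases after a start site given by RefSeq (build GRCr8). That site can lie inside the gene as annotated, as it did by 46 bases for Gstm7, 74 for Gsta1, 76 for Gsta2, 30 for Gstz1, 760 for Prdx5 and 2359 for Prdx4. It also did so by 2166 bases for Nfe2l2, 2669 for Txnl4b and 46649 for Txnrd1, so their windows do not lie in front of the annotated gene. Of the members, 57 had such a window in the table used, 63 windows in all, and 18 windows (28.6%) of 18 genes held the core, against 12.1% of the 33469 windows of all genes, a difference that was not tested. The 18 are Gsta1, Gsta2, Gsta3, Gstm5, Gstm7, Gstz1, Gpx2, Prdx1, Prdx4, Prdx5, Sod2, Gclm, Nfe2l2, Txnrd1, Txndc5, Txndc11, Txndc17 and Txnl4b. The core begins with the letters of an AP-1 site, so the same bases can match both. The stretches below are shown for the members with a match whose RNA differed with dose (Gpx2, Gsta2, Gstm7, Gstz1, Prdx1, Prdx4 and Prdx5) or between the sexes (Gsta3, Gsta1, Gclm and Txndc11), read along the strand of the gene with the matched bases in capitals. A match written as GC followed by NNNGTCA lies on the opposite strand.
Gpx2, chr6:101230023-101230061, minus strand: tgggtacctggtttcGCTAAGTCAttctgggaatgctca
Gsta2, chr8:88077043-88077071, minus strand: gaagccacgactctcGCTAGGTCAgtact
Gstm7, chr2:198260310-198260348, minus strand: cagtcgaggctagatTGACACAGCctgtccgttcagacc
Gstz1, chr6:112525360-112525398, plus strand: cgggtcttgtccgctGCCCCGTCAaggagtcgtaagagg
Prdx1, chr5:135383756-135383794, plus strand: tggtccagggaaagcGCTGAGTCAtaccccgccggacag
Prdx4, chrX:43878737-43878775, plus strand: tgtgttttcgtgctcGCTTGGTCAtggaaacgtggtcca
Prdx5, chr1:213532005-213532043, minus strand: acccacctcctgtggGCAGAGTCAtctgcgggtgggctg
Gsta3, chr9:31154957-31154995, plus strand: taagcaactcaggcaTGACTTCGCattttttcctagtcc
Gsta1, chr9:31216483-31216517, minus strand: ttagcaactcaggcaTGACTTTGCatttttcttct
Gclm, chr2:213031948-213031986, plus strand: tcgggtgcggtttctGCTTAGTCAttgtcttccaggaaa
Txndc11, chr10:5022310-5022348, plus strand: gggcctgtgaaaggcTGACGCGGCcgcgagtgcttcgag
In Gpx2 the matched bases begin 13 bases before the start of the gene, in Gsta3 17, in Txndc11 139 and in Gclm 172 bases before it. In Gsta2 they begin 36 bases and in Gsta1 30 bases after the start site of the window, which is 112 and 104 bases after the annotated start of the gene. As shown further on, at the highest doses Gsta2, Gstm7, Gstz1, Prdx1, Prdx4 and Prdx5 were called lower and Gpx2 alone was called higher. Gpx2 was near the limit of detection, and its call was lost without treated replicate 2. Gpx8, Gsr, Gstm6l, Gstt1, Gstt2, Hmox1, Mgst2, Prdx6, Sod3 and Txnip had no window in the table.

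Member calls lay mainly in the experiment A males at 1000 mkd on day 8 and the experiment B females at 1500 mkd on day 29. In both groups more members were called lower than higher. Of 24 comparisons of a dose with its controls, 6 called at least 1 member, and 23 members were called in at least 1 of them. In experiment A males at 1000 mkd, 18 of the 60 members tested were called (30.0%), 3 higher and 15 lower, while 21.4% of all 11323 genes tested were called, 14% higher and 7.45% lower. In experiment B females at 1500 mkd on day 29, 10 of 60 members were called (16.7%), 4 higher and 6 lower, while 13.1% of all genes were called, 9.55% higher and 3.54% lower. The median log2 fold change of the members was -0.28 in the former and -0.30 in the latter, while the median over all genes tested was 0.00 and -0.0018. In both groups the members' calls lay mostly on the lower side and those of all genes mostly on the higher side. In day 29 males the members leaned the other way, with few calls. At 300, 500, 750, 1000 and 1500 mkd 47, 50, 46, 43 and 40 of 59 members had a positive log2 fold change. Their medians were 0.20, 0.22, 0.25, 0.17 and 0.11, and those over all genes were -0.0090, 0.04, 0.05, 0.05 and 0.07. All these doses share the same control males, so the counts are not independent of each other. Control replicate 5 had the lowest summed member level of these controls (11351 CPM, others 14088 to 15747 CPM), and its part was not tested. Positive values over all genes were not counted.

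**Figure D1:**
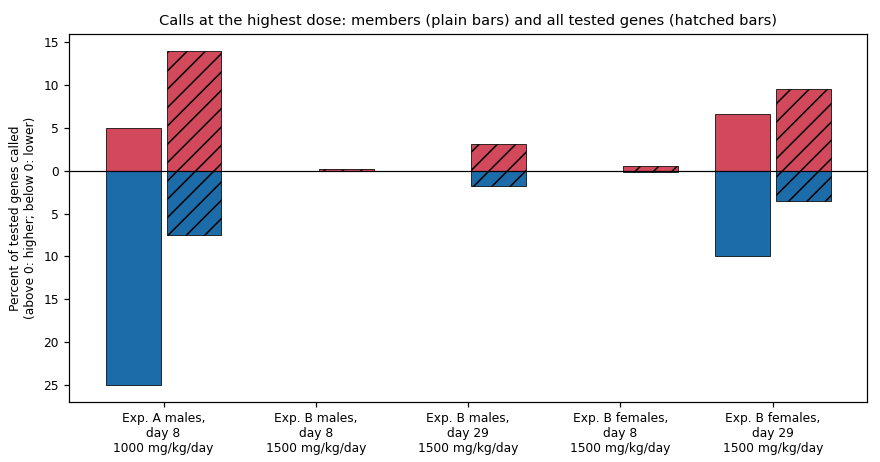
Percent of tested genes called at the highest dose of each data set, higher above the 0 line and lower below it, for the members (plain bars, left) and for all tested genes (hatched bars, right). In experiment A males 15 members were lower and 3 higher, in experiment B females on day 29 6 were lower and 4 higher, and the other 3 highest-dose groups show no plain bar because no member was called.

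In the other data sets few members were called. At 1500 mkd edgeR called 0 of 58 members in experiment B males on day 8 (DESeq2 called Gsta2), while 0.177% of all genes were called. It called 0 of 59 in males on day 29 (DESeq2 called Gpx3), with 4.91% of all genes called. It called 0 of 59 in females on day 8 (DESeq2 called Gstm1), with 0.705% of all genes called. At an unadjusted p under 0.05 by edgeR there were 8, 13 and 9 members, in that order. Over all genes tested, 1429 of 11304, 3050 of 11279 and 1688 of 11497 passed that cutoff. Below the highest dose only 3 members were called by edgeR: Sod3 in females on day 29 at 750 and 1000 mkd (0.183% and 1.59% of all genes), Gstm3 in females on day 8 at 1000 mkd (1.37% of all genes) and Txn1 in males on day 29 at 1000 mkd (2.76% of all genes). In experiment A no member was called from 30 to 300 mkd by edgeR or DESeq2, with 1 to 3 members at an unadjusted p under 0.05 by edgeR in each of these doses. Of all 11323 genes tested, 324, 232 and 218 passed that cutoff at 30, 100 and 300 mkd.

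**Figure D2:**
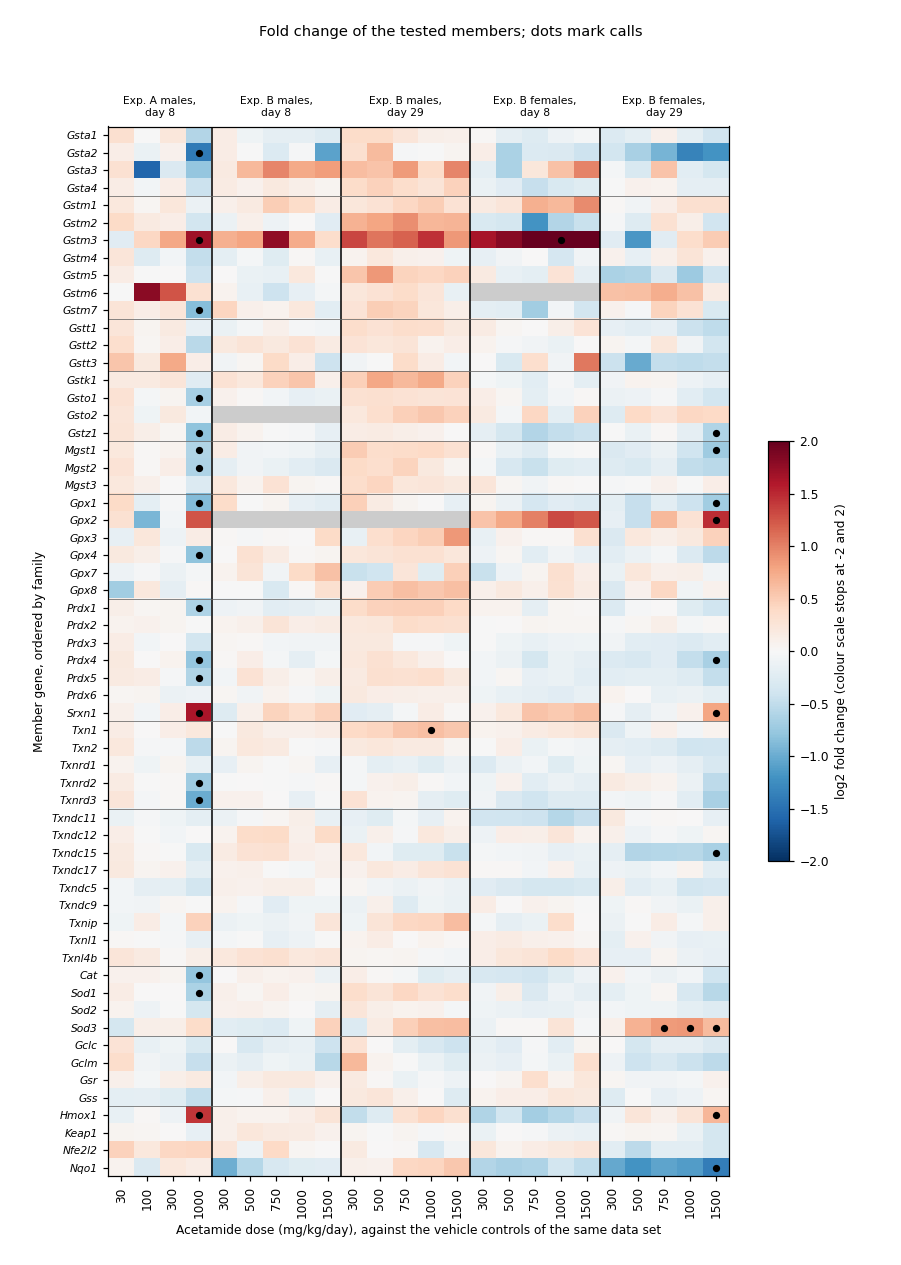
Log2 fold change of each tested member (rows, ordered by family) at each dose against the vehicle controls (columns, doses in mg/kg/day), red for higher and blue for lower, with a dot where a member was called and grey where it was not tested. The dots gather in the 1000 mkd column of experiment A (18) and the 1500 mkd column of the day 29 females (10).

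**Figure D3:**
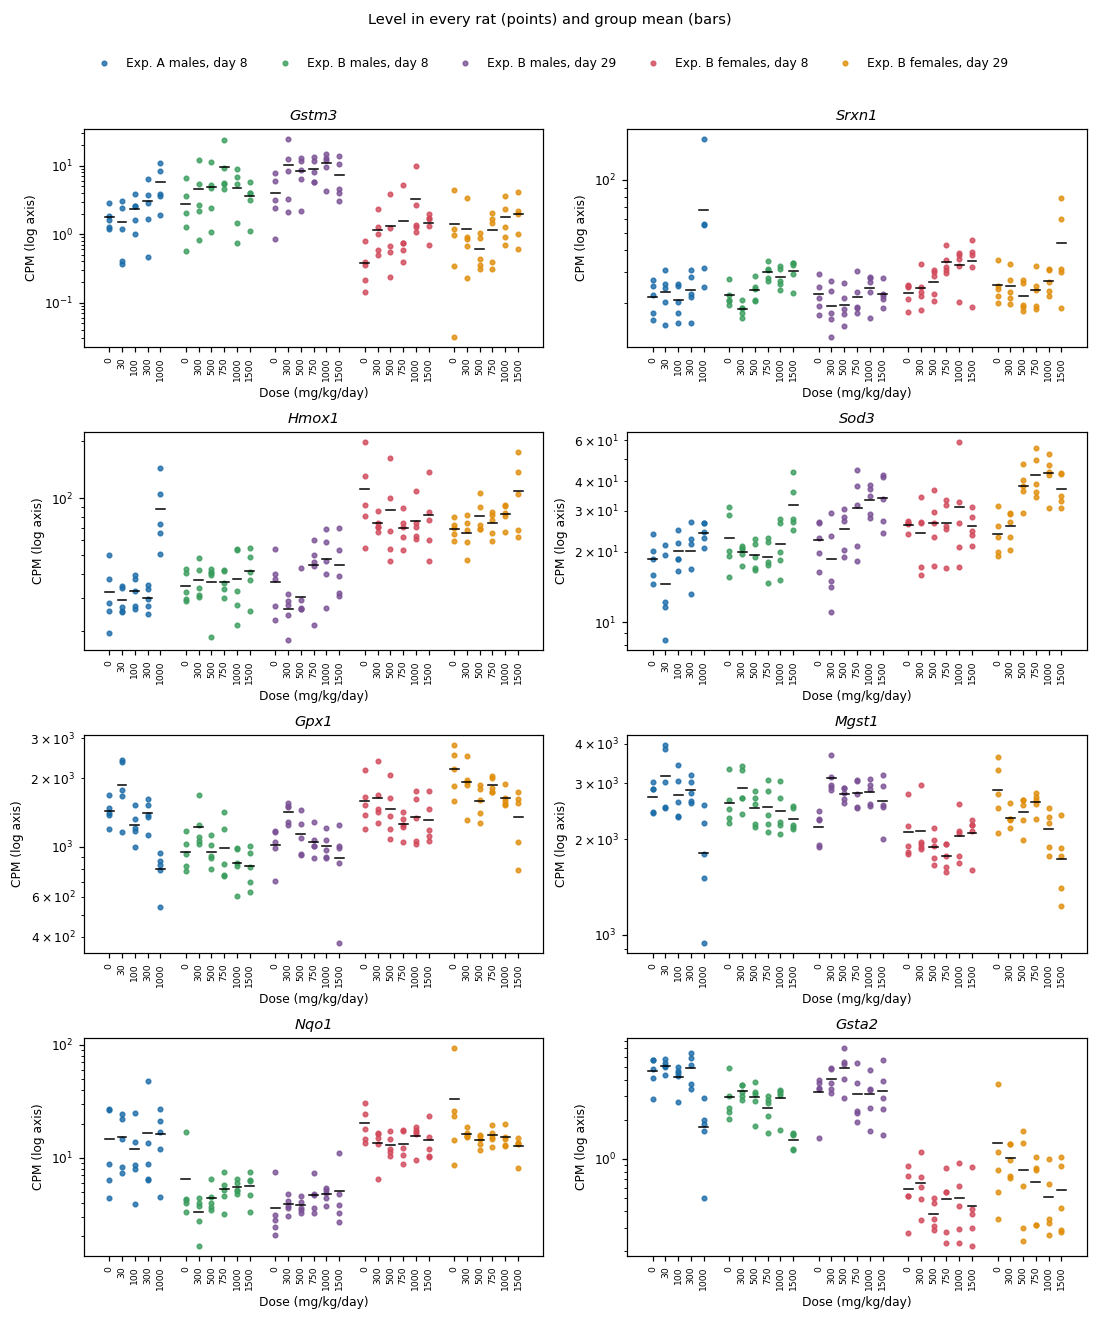
CPM of 8 members in every rat (points, log axis) by dose (mg/kg/day) in the 5 data sets, with the group mean as a bar. Srxn1 of experiment A replicate 2 at 1000 mkd (170.4 CPM) and Nqo1 of day 29 control female replicate 1 (93.7 CPM) stand far above the other rats of their groups.

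Among the alpha-class transferases, which conjugate electrophiles and lipid peroxidation products, Gsta2 fell in experiment A at 1000 mkd. Gsta2 was at 4.14, 2.88, 4.88, 5.74 and 5.70 CPM in the 5 control rats and at 1.97, 0.502, 2.90, 1.84 and 1.64 CPM at 1000 mkd. All but 1 of the treated rats lay below every control rat, and the log2 fold change was -1.42 ± 0.30 (SE, adjusted p = 0.00135). In experiment B males on day 8 the Gsta2 level at 1500 mkd was 1.17 to 1.57 CPM, below the 2.02 to 4.95 CPM of the controls in all 5 rats, with a log2 fold change of -1.08 that missed the threshold (adjusted p = 0.0541). In day 29 males the Gsta2 log2 fold change at 1500 mkd was 0.05 (95% interval -0.63 to 0.74). The other alpha-class members Gsta1, Gsta3 and Gsta4 were not called at any dose by edgeR (DESeq2 called Gsta1 in experiment A at 1000 mkd), with log2 fold changes of -0.58, -0.77 and -0.43 at 1000 mkd in experiment A.

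Of the mu class, Gstm3 was higher in treated rats and Gstm7 lower. Gstm3 in experiment A was at 1.29, 1.83, 1.60, 1.21 and 2.88 CPM in controls and at 3.88, 8.26, 11.1, 3.61 and 1.93 CPM at 1000 mkd, so 4 of 5 treated rats lay above every control and the fifth among them. Its log2 fold change was 1.69 ± 0.58 (adjusted p = 0.0296), and the call was lost without any of 6 of the 10 rats compared, down to 1.31 (adjusted p = 0.0832) without treated replicate 3. Those rats are control replicates 1 to 4 and treated replicates 2 and 3. In females on day 8 the Gstm3 controls were at 0.141, 0.350, 0.393, 0.783 and 0.211 CPM and the 1000 mkd rats at 9.98, 1.36, 1.09, 2.69 and 1.27 CPM. All 5 treated females lay above all controls and replicate 1 was the highest, with a log2 fold change of 3.14 ± 0.79 (adjusted p = 0.0372). This call was lost without control replicate 1, 2, 3 or 5 or treated replicate 1, 4 or 5, with 2.14 (adjusted p = 0.201) without replicate 1 of the treated females. At 1500 mkd the day 8 females were at 0.690 to 1.95 CPM of Gstm3, and the log2 fold change of 1.99 was not called (adjusted p = 0.220). Gstm7 in experiment A fell from 61.0 ± 14.4 CPM (SD, n = 5) to 34.1 ± 18.5 CPM (log2 fold change -0.84 ± 0.30, adjusted p = 0.0354), a call that was lost without control replicate 1, 3 or 4 or treated replicate 2, 4 or 5, at -0.60 (adjusted p = 0.0661) without treated replicate 2.

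Gstz1, the zeta-class enzyme that also acts in tyrosine breakdown as maleylacetoacetate isomerase, fell in both of the groups with most calls. In experiment A the Gstz1 controls were at 514, 557, 514, 473 and 398 CPM and the 1000 mkd rats at 391, 116, 373, 238 and 297 CPM, with all treated rats below all controls (log2 fold change -0.80 ± 0.21, adjusted p = 0.00648). Gstz1 in day 29 females was at 509, 402, 429, 524 and 565 CPM in controls and 364, 184, 289, 366 and 388 CPM at 1500 mkd, again without overlap of the groups (log2 fold change -0.61 ± 0.18, adjusted p = 0.0183). The day 29 call was lost without control replicate 5, treated replicate 2 or treated replicate 3, at -0.46 (adjusted p = 0.0719) without treated replicate 2. Gsto1, an omega-class enzyme that reduces dehydroascorbate, fell in experiment A from a range of 129 to 156 CPM in controls to one of 48.0 to 121 CPM (log2 fold change -0.66 ± 0.19, adjusted p = 0.0109), and without treated replicate 2 it was -0.50 (adjusted p = 0.0256). No theta-class or kappa-class transferase was called against its controls at any dose by edgeR, and DESeq2 called Gstk1 in day 29 males at 1000 mkd.

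The microsomal transferase Mgst1, a membrane enzyme with transferase and peroxidase activity, fell in the same 2 groups. Mgst1 in experiment A was at 2427, 3034, 2411, 2876 and 2872 CPM in controls and 2244, 943, 2559, 1794 and 1506 CPM at 1000 mkd, where replicate 2 was the lowest and replicate 3 lay within the range of the controls (log2 fold change -0.60 ± 0.20, adjusted p = 0.0305). Without replicate 2 the value was -0.43 (adjusted p = 0.0727), and leaving out control replicate 2, 4 or 5 or treated replicate 4 or 5 also ended the call. Day 29 females had Mgst1 at 3311, 2085, 2504, 2774 and 3639.8 CPM in controls and 1878, 1235, 1401, 1774 and 2391 CPM at 1500 mkd. All but 1 of the treated females lay below every control, with a log2 fold change of -0.71 ± 0.16 (adjusted p = 0.00249), and leaving out any single rat kept this call. Mgst2, which conjugates leukotrienes, fell in experiment A only slightly past the threshold (log2 fold change -0.61 ± 0.21, adjusted p = 0.0304) and was not called without control replicate 2 or 5 or treated replicate 2, 4 or 5 (-0.44, adjusted p = 0.0853 without treated replicate 2), and Mgst3 was not called at any dose.

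Of the glutathione peroxidases, Gpx1 fell and Gpx2 rose. Gpx1, the main cytosolic enzyme of its family in liver, was at 1197, 1404, 1379, 1481 and 1690.0 CPM in the experiment A controls and at 833, 541, 934, 864 and 789.8 CPM at 1000 mkd. The groups did not overlap, the log2 fold change was -0.86 ± 0.18 (adjusted p = 0.00148), and leaving out any single rat kept the call. Gpx1 in day 29 females was at 2208, 1853, 1593, 2540.4 and 2805 CPM in controls and 1549, 788, 1044, 1734 and 1627 CPM at 1500 mkd (log2 fold change -0.70 ± 0.19, adjusted p = 0.00976). Here the groups overlapped in part, and without treated replicate 2 the value was -0.56 (adjusted p = 0.0405), under the fold threshold. Gpx2, a peroxidase known mainly from the gut epithelium, was near the limit of detection in these livers. In day 29 females it was at 0.192, 0.284, 0.360, 0.117 and 0.235 CPM in controls, at most 9 counts per rat, and at 0.565, 1.65, 0.276, 0.553 and 0.201 CPM at 1500 mkd (log2 fold change 1.47 ± 0.44, adjusted p = 0.0184). Replicate 2 was the highest of the treated females, and without it the value was 0.75 (adjusted p = 0.211). Leaving out control replicate 4 also ended the Gpx2 call. Gpx4, which reduces lipid peroxides in membranes, fell in experiment A from a range of 189 to 275 CPM in controls to one of 83.3 to 175 CPM (log2 fold change -0.80 ± 0.18, adjusted p = 0.00219), without overlap of the groups.

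The peroxiredoxins Prdx1, Prdx4 and Prdx5 fell in experiment A, while Srxn1, the sulfiredoxin that repairs over-oxidized peroxiredoxins, rose. Prdx4, the member of the endoplasmic reticulum, was at 123, 185, 120.3, 159 and 244 CPM in experiment A controls and 138, 56.3, 133, 88.6 and 74.5 CPM at 1000 mkd, where 3 treated rats lay below all controls (log2 fold change -0.77 ± 0.26, adjusted p = 0.0310). Day 29 females had Prdx4 at 188, 94.8, 109, 159 and 205 CPM in controls and 91.1, 59.8, 70.3, 116 and 143 CPM at 1500 mkd (log2 fold change -0.64 ± 0.19, adjusted p = 0.0201). Both Prdx4 calls depended on single rats: that of experiment A was lost without control replicate 2 or 5 or treated replicate 2, 4 or 5, and that of the females without control replicate 1 or 5 or treated replicate 2 or 3. The lowest values were -0.59 (adjusted p = 0.103) and -0.51 (adjusted p = 0.0840), each without control replicate 5. Prdx1 and Prdx5 had log2 fold changes of -0.61 ± 0.19 (adjusted p = 0.0194) and -0.61 ± 0.19 (adjusted p = 0.0177) in experiment A. Leaving out control replicate 2 or 5 or treated replicate 2 ended both calls, as did treated replicate 5 for Prdx1 and treated replicate 4 for Prdx5, with -0.48 (adjusted p = 0.0605) for Prdx1 and -0.49 (adjusted p = 0.0560) for Prdx5 without treated replicate 2. Prdx2, Prdx3 and Prdx6 were not called at any dose.

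Srxn1 in experiment A was at 17.7, 27.1, 25.1, 16.0 and 22.4 CPM in controls and 31.5, 170.4, 24.6, 55.6 and 56.0 CPM at 1000 mkd. Replicate 2 was far above the other treated rats, and 4 of 5 treated rats lay above every control. The log2 fold change of Srxn1 was 1.63 ± 0.36 (adjusted p = 0.00186), a 3.09-fold rise, and without replicate 2 it was 0.95 (adjusted p = 0.00902), still called. Srxn1 in day 29 females was at 35.2, 24.0, 25.2, 22.1 and 20.0 CPM in controls and 31.3, 78.6, 59.8, 30.2 and 18.8 CPM at 1500 mkd, with replicates 2 and 3 above all controls, replicate 5 below them and replicates 1 and 4 among them (log2 fold change 0.79 ± 0.25, adjusted p = 0.0282). This call was lost without control replicate 4 or 5 or treated replicate 2 or 3, with 0.47 (adjusted p = 0.205) without treated replicate 2. On day 8 of experiment B the Srxn1 log2 fold change at 1500 mkd was 0.46 ± 0.12 in males (adjusted p = 0.0714) and 0.60 ± 0.19 in females (adjusted p = 0.106), neither called, and on day 29 in males it was 0.02 ± 0.19 (adjusted p = 0.961).

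Hmox1, heme oxygenase 1, which breaks down heme and is induced by heme and by oxidants, rose in the same 2 groups as Srxn1. Hmox1 in experiment A was at 19.5, 37.7, 25.5, 50.2 and 28.1 CPM in controls and 72.9, 144, 51.0, 106 and 65.5 CPM at 1000 mkd. All 5 treated rats were above all controls, the log2 fold change was 1.43 ± 0.24 (adjusted p = 0.000309), a 2.70-fold rise, and no left-out rat ended the call. In day 29 females Hmox1 was at 59.9, 72.3, 79.7, 69.5 and 65.0 CPM in controls and 106, 137, 175, 62.5 and 68.1 CPM at 1500 mkd, with replicates 4 and 5 within the range of the controls and replicates 1, 2 and 3 above it. Its log2 fold change there was 0.66 ± 0.20 (adjusted p = 0.0231). Leaving out control replicate 1 or 5 or treated replicate 2 or 3 ended this call, with 0.44 (adjusted p = 0.120) without treated replicate 3.

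The thioredoxin reductases Txnrd2, the mitochondrial enzyme, and Txnrd3 fell in experiment A. Txnrd3 was at 9.65, 8.26, 10.3, 9.65 and 10.9 CPM in controls and 5.97, 3.63, 7.55, 3.50 and 4.19 CPM at 1000 mkd, and Txnrd2 went from a range of 36.0 to 44.8 CPM in controls to one of 19.2 to 33.6 CPM, both without overlap of the groups. The log2 fold changes were -0.98 ± 0.19 for Txnrd3 (adjusted p = 0.000649) and -0.71 ± 0.13 for Txnrd2 (adjusted p = 0.000621), and no single rat decided either call. The cytosolic reductase Txnrd1, an NRF2 target, was not called in any data set, with log2 fold changes between -0.33 in day 29 females and -0.08 in day 8 females at the highest dose. Txn1, the cytosolic thioredoxin, rose in day 29 males at 1000 mkd from 120.1, 114, 120.1, 127 and 110.5 CPM to 154, 171, 208, 165 and 177 CPM, without overlap (log2 fold change 0.60 ± 0.12, adjusted p = 0.0185). The Txn1 fold stood just above the threshold and was below it, at 0.56, by DESeq2, and at 1500 mkd it was 0.54 ± 0.12 (adjusted p = 0.0113), not called. Leaving out any control male, or treated replicate 2, 3 or 5, also ended the Txn1 call, at 0.50 (adjusted p = 0.0692) without treated replicate 3. Txndc15, a thioredoxin-domain protein, fell in day 29 females at 1500 mkd from 30.4, 25.1, 18.8, 36.1 and 41.4 CPM to 19.3, 18.0, 20.5, 22.8 and 15.6 CPM (log2 fold change -0.65 ± 0.16, adjusted p = 0.00594), and was below the fold threshold without control replicate 5, at -0.51 (adjusted p = 0.0354).

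Cat, the catalase of peroxisomes, and Sod1, the cytosolic superoxide dismutase, fell in experiment A, and Sod3, the extracellular superoxide dismutase, rose in day 29 females. Cat was at 3319, 3104, 3213, 3436 and 2758 CPM in experiment A controls and 2513, 644, 2834, 1819 and 1517 CPM at 1000 mkd, lowest in replicate 2 (log2 fold change -0.77 ± 0.24, adjusted p = 0.0177), and without that rat it was -0.55 (adjusted p = 0.0177). Leaving out treated replicate 5 also ended the Cat call (-0.69, adjusted p = 0.0523). Sod1 in experiment A fell from a range of 616 to 751 CPM in controls to one of 265 to 557 CPM (log2 fold change -0.63 ± 0.18, adjusted p = 0.0110), lost without treated replicate 2, at -0.48 (adjusted p = 0.0264), or 5, at -0.56 (adjusted p = 0.0337), and in day 29 females at 1500 mkd its log2 fold change of -0.55 ± 0.17 passed the adjusted p (0.0229) and not the fold. Sod2, the mitochondrial enzyme, was not called at any dose, with log2 fold changes at the highest dose from -0.35 in experiment A to -0.04 in day 29 males.

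Sod3 was the member called at most doses. In day 29 females the Sod3 controls were at 19.3, 31.3, 23.2, 25.6 and 19.9 CPM. The rats at 750 mkd were at 34.3, 36.0, 55.3, 38.9 and 49.1 CPM, those at 1000 mkd at 43.6, 42.7, 47.2, 52.5 and 30.8 CPM and those at 1500 mkd at 42.8, 34.8, 30.8, 33.0 and 43.3 CPM. All 5 females at 750 mkd lay above every control, and at 1000 and 1500 mkd 1 rat of each group lay below the highest control. The log2 fold changes were 0.85 ± 0.17 (adjusted p = 0.0321), 0.86 ± 0.17 (adjusted p = 0.0129) and 0.63 ± 0.17 (adjusted p = 0.00879) at 750, 1000 and 1500 mkd. At 500 mkd it was 0.70 ± 0.17 (adjusted p = 0.0825), not called by edgeR and called by DESeq2. The call at 750 mkd was lost without control replicate 1, 4 or 5 or treated replicate 2, 3, 4 or 5 (0.78, adjusted p = 0.131 without control replicate 1), that at 1000 mkd without control replicate 1 (0.79, adjusted p = 0.0602) or treated replicate 4 (0.79, adjusted p = 0.0594), and that at 1500 mkd without control replicate 1 or 5 or treated replicate 1 or 5, where the fold went below 1.5 (0.56, adjusted p = 0.0179 without treated replicate 5). In day 29 males the Sod3 log2 fold change at 1500 mkd was 0.61 ± 0.25 (adjusted p = 0.118).

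Nqo1, the quinone reductase that is the usual marker of NRF2 activity, was called against its controls by edgeR at a single dose, as lower, in day 29 females at 1500 mkd, and by DESeq2 also at 1000 mkd. The Nqo1 controls of that data set were at 93.7, 14.5, 8.56, 25.7 and 23.6 CPM and the 1500 mkd rats at 13.5, 13.4, 15.1, 13.1 and 8.09 CPM, with a log2 fold change of -1.38 ± 0.35 (adjusted p = 0.00752). The control mean rested on replicate 1: without it the log2 fold change was -0.51 (adjusted p = 0.109), and at 300 mkd, where it was -1.02, the treated rats were at 15.1 to 18.7 CPM, within the range of the controls. In experiment A Nqo1 was at 4.43 to 26.9 CPM in controls and at 4.49 to 26.8 CPM at 1000 mkd (log2 fold change 0.15 ± 0.60, adjusted p = 0.878), and in day 29 males the change at 1500 mkd was 0.54 ± 0.32 (adjusted p = 0.280).

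The regulators and the enzymes of glutathione synthesis were not called at the highest dose of any data set. Nfe2l2 in experiment A was at 109, 129, 135, 97.9 and 163 CPM in controls and 133, 222, 140.4, 181 and 184 CPM at 1000 mkd, where 3 of 5 rats lay above every control (log2 fold change 0.43 ± 0.18, adjusted p = 0.0685). In day 29 males at 1500 mkd Nfe2l2 was at 129, 124, 258, 125 and 118 CPM, with replicate 3 far above the other 4. Keap1 in day 29 females was at 63.4, 66.6, 66.6, 65.2 and 62.4 CPM in controls and 52.2, 43.8, 48.8, 57.9 and 51.1 CPM at 1500 mkd, all treated rats below all controls, with a log2 fold change of -0.35 ± 0.08 (adjusted p = 0.00243) that passed the adjusted p and not the fold. Gclc and Gclm, the catalytic and modifier subunits of the enzyme that limits glutathione synthesis, had log2 fold changes of -0.30 ± 0.18 and -0.46 ± 0.23 in experiment A and -0.29 ± 0.19 and -0.52 ± 0.25 in day 29 females, with adjusted p from 0.129 to 0.302. Gss, glutathione synthetase, had -0.48 ± 0.17 (adjusted p = 0.0338, under the fold threshold) and Gsr, glutathione reductase, 0.19 ± 0.10 (adjusted p = 0.148) in experiment A.

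The experiment A males at 1000 mkd and the day 29 females at 1500 mkd share no control rats. Gpx1, Gstz1, Mgst1 and Prdx4 were called lower and Hmox1 and Srxn1 higher in both, 6 members in all, which is 33.3% of the 18 called in experiment A and 60.0% of the 10 called in the females. The overlap was not tested, and that over all genes called was not counted. It rested on single rats. Without treated replicate 2 of the females, Gpx1, Gstz1, Prdx4, Hmox1 and Srxn1 were no longer called there. Without treated replicate 2 of experiment A, Mgst1 and Prdx4 were no longer called in that group. In both groups the livers also differed from their controls in the markers of hepatocytes and of other cells, and in bulk RNA fewer cells of a type and less RNA per cell cannot be told apart. The summed level of 10 hepatocyte genes was 81890.3 to 262639 CPM at 1000 mkd and 270650.0 to 358885 CPM in the controls of experiment A, with 3 of the 10 (Alb, Apob and Ttr) called lower. In day 29 females it was 88316 to 182586 CPM at 1500 mkd and 187792 to 374028 CPM in controls, with Alb, Apoa1 and Cps1 called, 2 lower and 1 higher. Neither pair of ranges overlapped. The summed level of 12 macrophage markers was 1558 to 2735 CPM against 662 to 1826 CPM in experiment A, with 7 called higher, and 1199 to 2238 CPM against 1055 to 1256 CPM in the females, with 4 called higher. Of the T and NK cell markers 9 of 10 and 3 of 9 tested were called higher (summed levels 48.8 to 91.3 and 38.3 to 80.5 CPM, controls 29.0 to 34.6 and 21.5 to 50.1 CPM), of the 6 endothelial markers 4 and 2, and all 14 cell cycle genes were higher in both groups. Their part in the members' changes was not tested. Alb, serum albumin, had log2 fold changes of -0.91 ± 0.27 (adjusted p = 0.0132) and -0.98 ± 0.26 (adjusted p = 0.0103) in the 2 groups. The markers called in both were Cd68, Cd163, Vsig4 and C1qb of macrophages, Cd4, Lck and Nkg7 of T and NK cells, Cdh5 and Lyve1 of endothelium and Pdgfrb of stellate cells and Ncf1 of the neutrophil list, all higher, and Hbb and Alas2 of erythroid cells, both lower. In experiment A Pdgfrb was the only marker called of 8 stellate markers tested, and Hbb and Alas2 were 2 of 6 erythroid markers tested. The summed stellate level there was 432 to 605 CPM, and 236 to 594 CPM in controls. Of the 4 neutrophil markers tested, S100a8 (-1.82 ± 0.54, adjusted p = 0.0135) and S100a9 (-1.74 ± 0.61, adjusted p = 0.0351) fell in experiment A, where the median of the list was -0.83.

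Animal by animal, replicate 2 of experiment A at 1000 mkd had the lowest Gpx1, Mgst1, Cat, Gstz1 and Gsta2 and the highest Srxn1 and Hmox1 of its group. The same rat had the lowest summed hepatocyte level of its group (81890.3 CPM, others 147002 to 262639 CPM). Its TMM factor, 1.73, was the largest of all rats. Without that rat 8 members were called instead of 18 (Gpx1, Gpx4, Gsta2, Gstz1, Hmox1, Srxn1, Txnrd2 and Txnrd3), which is 13.3% of the members, while 14.6% of all genes were called. Without treated replicate 5 there were 11 calls (18.3%, and 18.9% of all genes), and without treated replicate 3 there were 24 (40.0%, and 25.4% of all genes). So in experiment A the members' share was above that of all genes with all rats, and below it without treated replicate 2 or 5. In the day 29 females 4 members (6.67%) were called without control replicate 5, where 9.91% of all genes were, and 4 without treated replicate 2, where 6.99% were. Treated replicate 2 had the lowest summed hepatocyte level (88316 CPM, others 154628 to 182586 CPM) and the largest TMM factor of the 1500 mkd females. The part of these library differences in the calls was not tested. Without control replicate 1 or treated replicate 3 there were 6 (10.0%, with 10.7% and 10.1% of all genes), and without treated replicate 4 there were 15 (25.0%, with 14.6% of all genes). With only the control and the 1500 mkd rats in the fit, so that the spread was estimated from 10 rats, no member passed in the females by edgeR.

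The male and female livers differed in these genes before any treatment. In vehicle controls of experiment B on day 8, 19 of 60 members were called between the sexes (31.7%), 9 higher and 10 lower in females. Gstm6 passed the filter on low counts there only through the males, where it is higher, and without it 18 of 59 were called (30.5%), while 8.37% of all genes were called, 4.15% higher and 4.21% lower. On day 29, 14 of 60 were called (23.3%), 8 higher and 6 lower in females, while 11.6% of all genes were called, 6.23% higher and 5.4% lower. The 2 days used different rats. Gsta3, Nqo1, Hmox1, Gpx1, Gstk1 and Txnip were called higher in females on both days. Gstm1, Gsta2, Gstm7, Cat and Gclc were called higher in males on both days. Gstm6 is not counted among them, because its day 8 value is no test.

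**Figure D4:**
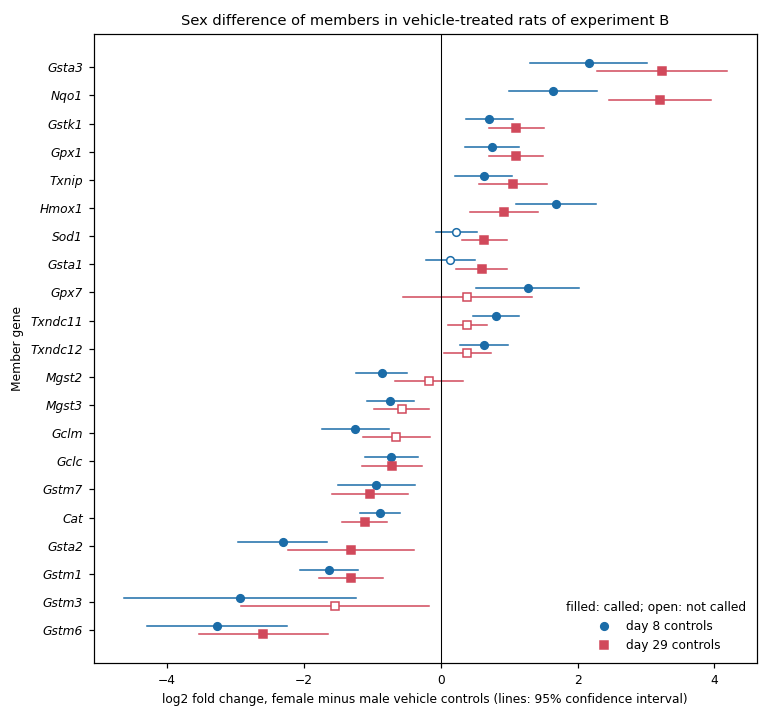
Log2 fold change of the 21 members called between female and male vehicle controls on day 8 (circles) or day 29 (squares), with 95% confidence intervals as lines, positive where females were higher. Filled symbols were called and open ones were not. Gsta3 was at 2.16 and 3.23 and Gstm1 at -1.63 and -1.31, and the day 8 symbol of Gstm6 is of a gene that passed the filter only through the males and is no test.

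The alpha and mu classes were split between the sexes. Gsta3 was at 13.0, 17.0, 19.0, 20.9 and 36.8 CPM in day 8 control females and 4.95, 3.39, 3.38, 5.72 and 6.57 CPM in males, and at 34.9, 31.0, 31.4, 47.7 and 78.6 and 5.70, 4.26, 6.58, 5.00 and 2.03 CPM on day 29. All females lay above all males, with log2 fold changes of 2.16 ± 0.42 (adjusted p = 0.000172) and 3.23 ± 0.47 (adjusted p = 7.51e-07). Gsta2 went the other way, at 0.275 to 0.884 CPM in females and 2.02 to 4.95 CPM in males on day 8 (log2 fold change -2.31 ± 0.32, adjusted p = 2.56e-07) and -1.31 ± 0.46 (adjusted p = 0.0391) on day 29, where leaving out any rat but control male replicate 5 or control female replicate 1 ended the call, at -1.06 (adjusted p = 0.114) without female replicate 2. Gstm1, a mu-class enzyme, was at 298, 343, 299, 394 and 461 CPM in day 8 females and 907, 1017, 1041, 1202 and 1381 CPM in males, with log2 fold changes of -1.63 ± 0.21 (adjusted p = 3.94e-08) on day 8 and -1.31 ± 0.24 (adjusted p = 3.78e-05) on day 29 and no overlap on either day. Gstm6 was at 0.0435 to 0.157 CPM in females and 0.516 to 1.77 CPM in males on day 8, given as values only because it passed the filter through the males alone. On day 29 it was at 0.154 to 0.284 CPM in females, at most 9 counts per rat, and 0.426 to 2.50 CPM in males (log2 fold change -2.59 ± 0.47, adjusted p = 4.52e-05). Gstm7 had -0.94 ± 0.28 (adjusted p = 0.0168) on day 8, lost without male replicate 2, at -0.81 (adjusted p = 0.0616), or female replicate 2, at -0.82 (adjusted p = 0.0655), and -1.04 ± 0.28 (adjusted p = 0.00561), and Gstm3 -2.93 ± 0.85 (adjusted p = 0.0137) on day 8 alone, where leaving out control male replicate 2 gave -2.34 (adjusted p = 0.0754).

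Among the NRF2 targets, Nqo1 and Hmox1 were higher in control females on both days, and the subunits of the glutathione-synthesis enzyme higher in control males on day 8. Nqo1 was at 30.8, 24.2, 14.8, 18.1 and 13.4 CPM in day 8 control females and 16.8, 3.95, 3.28, 4.17 and 4.30 CPM in males, where replicate 1 was far above the other males (log2 fold change 1.64 ± 0.32, adjusted p = 0.000152). On day 29 the Nqo1 log2 fold change was 3.21 ± 0.37 (adjusted p = 1.83e-09), with all females above all males. Hmox1 was at 54.7 to 198 CPM in day 8 females and 28.7 to 42.4 CPM in males (log2 fold change 1.69 ± 0.29, adjusted p = 1.73e-05), and 0.92 ± 0.25 (adjusted p = 0.00615) on day 29. Gclm was at 43.2, 43.6, 59.6, 45.7 and 77.9 CPM in day 8 females and 127, 169, 108, 103 and 134 CPM in males, all females below all males, with a log2 fold change of -1.25 ± 0.24 (adjusted p = 0.000166). On day 29 Gclm had -0.65 ± 0.24 (adjusted p = 0.0546), called by DESeq2 and not by edgeR. Gclc, called on both days, had -0.72 ± 0.19 and -0.71 ± 0.22 (adjusted p = 0.00683 and 0.0173), and on day 29 it was not called without male replicate 1 or female replicate 3, at -0.57 (adjusted p = 0.0780) without the latter.

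Of the peroxide-removing enzymes, Gpx1 was higher in females and Cat higher in males. Gpx1 was at 1199.6 to 2172 CPM in day 8 control females and 782 to 1172 CPM in males, with log2 fold changes of 0.75 ± 0.20 (adjusted p = 0.00575) on day 8 and 1.10 ± 0.20 (adjusted p = 4.37e-05) on day 29. Cat was at 1973, 1369, 2175, 2066 and 2102 CPM in day 8 females and 3119.6, 3619.8, 4008, 3862 and 3336 CPM in males, all females below all males on both days, with -0.89 ± 0.14 (adjusted p = 6.64e-06) and -1.11 ± 0.16 (adjusted p = 8.53e-07). Gpx7, a peroxidase of the endoplasmic reticulum, was called on day 8 only (1.27 ± 0.37, adjusted p = 0.0158). Gstk1, the kappa-class enzyme of mitochondria and peroxisomes, had 0.71 ± 0.17 (adjusted p = 0.00284) on day 8 and 1.10 ± 0.20 (adjusted p = 4.02e-05) on day 29, and Txnip, the inhibitor of thioredoxin, 0.63 ± 0.21 (adjusted p = 0.0391, lost without male replicate 1, 3, 4 or 5 or female replicate 3, 4 or 5) and 1.05 ± 0.25 (adjusted p = 0.00182). Beside these differences, 3 of 12 macrophage markers and 2 of 6 endothelial markers were also called higher in the day 29 females, and 4 of 14 cell cycle genes lower in the day 8 females, and their part was not tested.

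The difference of the response between sexes was tested as an interaction at 1500 mkd. On day 29 a single member, Mgst1, was called of 60, while 0.0688% of all genes were called. The Mgst1 log2 response was -0.71 in females and 0.30 in males, and the difference, female minus male, was -0.99 ± 0.19 (adjusted p = 0.0135). Leaving out treated male replicate 2 or treated female replicate 2 or 3 ended this call, at -0.91 (adjusted p = 0.0531), -0.87 (adjusted p = 0.0737) and -0.90 (adjusted p = 0.0931), while leaving out treated male replicate 3 gave 9 member calls and leaving out treated female replicate 5 gave 8. The number of all genes called moved with them, from 8 with all rats to 768 and 521. Treated male replicate 3 is the rat that the authors identified as an outlier in Ki67 labeling, their measure of cell proliferation. The Nqo1 difference was -1.90 ± 0.49 (adjusted p = 0.0674), not called. On day 8 edgeR called 0 members and 0% of all genes for this difference, and DESeq2 called 0 members. At an unadjusted p under 0.05 by edgeR there were 2 members, and 533 of all 11631 genes.

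The response at 1500 mkd was not called different between day 8 and day 29 for any member. EdgeR called 0 of 59 members in males, where 0% of all genes were called, and 0 of 60 in females, where 0.00858% of all genes were called. At an unadjusted p under 0.05 by edgeR there were 6 members in males and 10 in females. Of all genes, 538 of 11464 in males and 932 of 11657 in females passed that cutoff. DESeq2 also called 0 members in each sex. The median of the 60 differences in females, day 29 minus day 8, was -0.20 on the log2 scale, and that over all genes was 0.00. In males the median of the 59 differences was 0.12, and that over all genes was 0.02.

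The response at 1000 mkd on day 8 differed between experiment A and experiment B males for 10 members of 60, 2 higher and 8 lower in experiment A, while 6.9% of all genes were called, 4.92% higher and 1.98% lower. Strain, age and time of study differ between the experiments and cannot be told apart. The differences in log2 response, experiment A minus experiment B, were positive for Hmox1 (1.30 ± 0.34, adjusted p = 0.0165) and Srxn1 (1.28 ± 0.37, adjusted p = 0.0266). They were negative for Gsta2 (-1.41 ± 0.38, adjusted p = 0.0196), Cat (-0.87 ± 0.25), Gstt2 (-0.84 ± 0.26), Gpx4 (-0.84 ± 0.27), Txnrd3 (-0.84 ± 0.22), Gstk1 (-0.79 ± 0.25), Gstz1 (-0.78 ± 0.24) and Txnrd2 (-0.70 ± 0.18), with adjusted p from 0.0162 to 0.0446. Gstk1 and Gstt2 were not called at 1000 mkd on day 8 within either experiment: Gstk1 was at 119 to 145 and 82.1 to 148 CPM at 0 and 1000 mkd in experiment A and at 64.9 to 92.8 and 83.9 to 142 CPM in experiment B. Without replicate 2 of experiment A at 1000 mkd 0 members were called for this difference, without replicate 4 there were 4, and without replicate 3 there were 18. The number of all genes called moved with them, from 799 with all rats to 201, 317 and 1476. Leaving out replicate 4 of the experiment A controls, replicate 5 of experiment A at 1000 mkd or replicate 1 or 3 of experiment B at 1000 mkd gave 6 member calls, with 436 to 612 genes called.

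Other genes of the NRF2 pathway, taken from a list of 26 further targets (24 or 25 tested), are described by their counts. In experiment A at 1000 mkd 4 of 25 were called higher and 1 lower, beside 21.4% of all genes, with a median log2 fold change of 0.11. In day 29 females at 1500 mkd 2 of 24 were higher and 1 lower, beside 13.1% of all genes (median -0.16). In day 29 males at 1500 mkd 3 were higher and 1 lower, beside 4.91% of all genes. The counts were 2 and 0 in day 8 females, beside 0.705% of all genes, and 0 and 0 in day 8 males, beside 0.177%. Akr7a3, an aldehyde reductase induced by dietary antioxidants, had a log2 fold change of 1.00 ± 0.29 (adjusted p = 0.0135) in experiment A, 2.18 ± 0.53 (adjusted p = 0.0435) in day 8 females and 0.85 ± 0.25 (adjusted p = 0.0173) in day 29 females. Abcc3, an exporter of glutathione and glucuronide conjugates, rose in experiment A (1.89 ± 0.38, adjusted p = 0.00105), in day 29 males (1.47 ± 0.37, adjusted p = 0.0203) and in day 29 females (1.55 ± 0.37, adjusted p = 0.00458). Gstp1, the pi-class transferase that marks altered hepatocytes in rat liver, was at 3.41 to 5.11 CPM in day 29 control males and 6.05 to 10.5 CPM at 1500 mkd, all treated rats above all controls (log2 fold change 0.95 ± 0.22, adjusted p = 0.0124). Gstp1 was also called higher in day 29 males at 750 and 1000 mkd. At the highest dose of the other data sets Gstp1 was not called, with log2 fold changes of -0.0014 in experiment A, 0.16 in day 8 males, -0.12 in day 8 females and 0.41 in day 29 females.

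Of 10 genes that regulate NRF2 (KEAP1 partners, small MAF proteins and related factors) none was called at the highest dose of any data set by edgeR, with medians from -0.11 in day 29 males to 0.11 in experiment A. Of the genes of glutathione turnover, 23 tested in experiment A gave 3 higher and 4 lower calls (median -0.06), beside 21.4% of all genes called. In day 29 females 22 tested gave 1 and 1, beside 13.1% of all genes called. Glrx5, a mitochondrial glutaredoxin of iron-sulfur cluster assembly, fell in both, with log2 fold changes of -0.71 ± 0.19 (adjusted p = 0.00697) and -0.66 ± 0.17 (adjusted p = 0.00745). In day 29 males 2 of 22 were higher and 0 lower, beside 4.91% of all genes called. Of these, Gstp1 is also counted in the list of NRF2 targets above. Day 8 rats of experiment B had 0 calls in this list in either sex, beside 0.177% of all genes in males and 0.705% in females.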

How the data were processed

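Liver RNA of 145 rats (29 groups of 5 biological replicates per the labels) was sequenced as stranded mRNA libraries. The authors trimmed reads with Trimmomatic, aligned them to the UCSC Rn6 build with Bowtie2 and counted them per gene with HTSeq. Versions and the strand setting of HTSeq are not given in the sources used here, so a gene and an overlapping or antisense partner may share reads. The deposited values are raw counts per gene, not normalized. The summary lines of HTSeq were left out of library sizes, and no column was left out. From the counts, TMM factors (0.735 to 1.73) and CPM were computed with edgeR 4.0.16 in R 4.3.3, with its default filter on low counts.

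Each data set was fitted with all its dose groups by the edgeR quasi-likelihood F-test, and controls of both sexes, the sex and time interactions and the difference between experiments were contrasts of joint fits. Adjusted p are Benjamini-Hochberg values over all genes tested. A call needed a fold change of 1.5 and an adjusted p of 0.05, with 1.4 and 0.1 as the relaxed criteria. Alternatives were DESeq2 1.42.0, edgeR with the size factors of DESeq2, dropping the filter or asking for 10 or more counts per rat, a replicate block, only the compared groups, and leaving out each rat. Scripts were tested on simulated data. The members and gene lists were chosen with earlier results of these data known. All members called at a dose are named. The 10 called in most dose comparisons, ties going to the larger absolute log2 fold change, are described in full, with the core NRF2 genes whether called or not, at most 10 members per test of sex or interaction by absolute log2 value, and genes of other lists called at the highest dose of at least 2 data sets. Promoters come from RefSeq (GRCr8), a different build from that of the counts, matched by symbol.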

Additional observations from a re-analysis of the deposited data

Results flagged for a closer look

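Rats were looked for that stand apart from the other 4 of their group by Dixon's test, in 196 groups over 20 genes, and 18 did, where chance flags about 1 in 20 groups. For Nqo1 these were control male replicate 1 on day 8 (16.8 CPM, others 3.28 to 4.30) and on day 29 (7.43 CPM), control female replicate 1 on day 29 (93.7 CPM, others 8.56 to 25.7), and at 1500 mkd on day 29 male replicate 3 (10.9 CPM) and female replicate 5 (8.09 CPM). Male replicate 3 at 1500 mkd on day 29 also stood apart in Nfe2l2 (258 CPM, others 118 to 129), Gclc (182 CPM, others 107 to 126) and Gpx2 (0.779 CPM), and its summed cell cycle level was 1491 CPM, the highest of its group. This male is Rv2655, which the authors identified as an outlier in Ki67 labeling and left out of their dose modeling of that labeling. For Gpx2 the other rats were male replicate 2 at 1500 mkd on day 8 (0.40 CPM) and female replicate 2 at 1500 mkd on day 29 (1.65 CPM). Gsta2 was low in control male replicate 5 (1.46 CPM, others 3.41 to 4.01) and high in control female replicate 1 (3.72 CPM, others 0.347 to 1.14) on day 29. Srxn1 was at 170.4 CPM in experiment A replicate 2 at 1000 mkd, and Gstm3 at 4.44 CPM in control female replicate 4 on day 29. On day 8 of experiment B, Sod3 was at 23.9 CPM in control female replicate 5, Gstz1 at 504 CPM in control male replicate 2, Mgst1 at 1595 CPM in female replicate 2 at 1500 mkd and Sod1 at 474 CPM in male replicate 4 at 1500 mkd.

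The responses of 11 members differed between groups by a test of the difference. Mgst1 differed between the sexes at 1500 mkd on day 29 (female minus male log2 response -0.99). Between experiments A and B in males at 1000 mkd on day 8, the log2 responses differed by 1.30 for Hmox1, 1.28 for Srxn1, -1.41 for Gsta2, -0.87 for Cat, -0.84 for Gpx4, -0.84 for Gstt2, -0.84 for Txnrd3, -0.79 for Gstk1, -0.78 for Gstz1 and -0.70 for Txnrd2. None of these 10 remained called without experiment A replicate 2 at 1000 mkd.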

How the results depend on the processing

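Of 1318 alternative values of the 76 member calls, 1092 kept the call, 226 lost it and 0 reversed, and 31 calls were never lost. The 76 and the 31 include Gstm6 between the control sexes on day 8, which is no test. The day 8 counts between the control sexes below also include it. Leaving out 1 rat at a time, the number of members called ran from 8 to 24 in experiment A at 1000 mkd, from 4 to 15 in day 29 females at 1500 mkd, from 17 to 19 and 11 to 17 between control sexes on day 8 and day 29, from 0 to 9 for the sex difference in response on day 29, from 0 to 18 for the difference between experiments, from 0 to 1 in males at 1500 mkd on either day and from 0 to 2 in day 8 females. Below the highest dose it ran from 0 to 2 in day 29 males, 0 to 1 in day 8 females and 0 to 3 in day 29 females, and it stayed at 0 in experiment A, day 8 males, the day 8 sex difference in response and both time differences. With only the compared groups 8 members were called in experiment A, and 0 in day 29 females, for the day 29 sex difference in response, for the difference between experiments and for day 8 females below the highest dose, where fewer rats estimate the spread. DESeq2 called 1 in males on day 8, 1 in males on day 29 and 1 in females on day 8 at 1500 mkd, 3 for the day 29 sex difference in response and 2 in day 29 females below the highest dose. Its size factors in edgeR gave 1 in day 8 males and 0 in day 29 males below the highest dose. Without the filter day 29 males had 0 below the highest dose. With at least 10 counts in every rat there were 1 in day 8 males at 1500 mkd and 0 below the highest dose in day 29 males and day 8 females. Relaxed criteria gave 1, 3 and 1 at 1500 mkd in day 8 males, day 29 males and day 8 females, 3 for the day 29 sex difference in response and 3 each below the highest dose on day 29. The cause was not tested. With replicate numbers as a block there were 2 calls in day 29 males and 0 in day 8 females below the highest dose. Rats with the same replicate number did not deviate together (mean r from -0.014 to 0.038 by data set), so in experiment B they share only a number. In experiment A some replicate numbers differ from those in the labels, so the block and these correlations could not test pairing by label there. Counts of alpha and mu transferases and of Gpx2, at most 9 per control female, limit what these data can show for those genes.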
